A study of Mus musculus with 12 samples.

Results

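Myoblast fusion and membrane repair were followed through 10 mouse genes in C2C12 cells, a mouse myoblast line. The genes were taken by symbol: the fusion protein gene Mymk, the cadherin genes Cdh15 and Cdh2, the immunoglobulin-type adhesion genes Ncam1, Jam2 and Jam3, the protease gene Adam12, the caveolin gene Cav3, and the ferlin genes Dysf and Myof. They are 10 of the 19057 genes that have a probe on the array. RNA was measured on 12 Illumina bead arrays in 4 groups of 3. The antimiR cells were transfected with antimiR-206, an inhibitor of the muscle microRNA miR-206, and grown for 48 h. The Day2 cells spent 48 h in differentiation medium, which contains horse serum at a low concentration. The mimic cells were transfected with an siRNA made to imitate miR-206 and grown for 24 h. The Day1 cells spent 24 h in differentiation medium. A lipid transfection reagent is given for every sample of all 4 groups. Whether Day1 and Day2 cells received a control oligonucleotide is not stated, and neither is the medium of the mimic and antimiR cells, so in the comparisons with them the oligonucleotide, transfection and medium cannot be told apart. C2C12 is 1 cell line, and no label says whether the numbered replicates came from separate cultures, so a p-value here reflects the scatter among arrays, which could be technical in origin.

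Skeletal muscle fibres form when mononucleated myoblasts line up, adhere through cadherins and immunoglobulin-type receptors, and merge their plasma membranes. The multipass membrane protein myomaker, encoded by Mymk, is required for that merging in mouse muscle and works together with the small protein myomixer. Ferlins, which are calcium-binding proteins that promote vesicle fusion, and caveolar proteins take part in repair of the muscle membrane. Mutations in human DYSF and CAV3 cause muscle diseases. MiR-206 is a microRNA of skeletal muscle that is switched on during differentiation and pairs with its targets mainly through its seed. Its mature sequence (RefSeq, GRCm38.p6, chr1:20679055-20679076, plus strand) is shown because it is the molecule that the mimic imitates and the antimiR opposes, with the seed, bases 2 to 8, in capitals.
mmu-miR-206-3p: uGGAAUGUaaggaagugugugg

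Levels below are log2 normalized intensities, corrected for background and set to a common distribution across arrays. A probe was called above background on an array where its detection p was under 0.05. The lowest normalized value above background lay between 4.62 and 4.75 on the 12 arrays, so values near or under it are a floor. Levels of different probes are not on a common scale, and each probe is compared only with itself. Of 26 probes for the 10 genes, 19 were above background on at least 3 of the 12 arrays and entered the fit. That left 8 of the 10 genes. Both Cdh2 probes and the single Jam3 probe were not above background on any of the 12 arrays. Cav3 passed through the Day2 arrays alone, so it could only have come out different there.

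The raw median intensity was 49.5 to 63.2 over the arrays, and 16636 to 18234 of 45281 probes were above background on each. Of 5 myoblast markers, Myod1, Des and Itga7 were above background on all arrays of every group, while Myf5 and Pax7 were above it on none. The summed raw intensity of 4 markers of differentiating muscle (Myog, Acta1, Tnni2 and Ckm) was 276 to 364 on antimiR arrays, 27902 to 55829 on Day2 arrays, 252 to 288 on mimic arrays and 223 to 277 on Day1 arrays, so it moved with most of the results below. Its part in them was not tested. None of 12 markers of endothelium, macrophages, adipocytes or nerve and Schwann cells was above background on all 3 arrays of any group. Of 3 osteoblast markers, Bglap2 was above background on every array, at 7.16 ± 0.41 in antimiR, 8.50 ± 0.24 in Day2, 7.08 ± 0.64 in mimic and 6.59 ± 0.29 in Day1 cells (SD, n = 3 each). Mimic replicate 1 stood apart from its group, with a mean correlation across genes of 0.993 with the Day1 arrays and 0.971 with the other mimic arrays.

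Between 24 h and 48 h in differentiation medium, 6 of the 8 tested genes rose: Mymk, Cdh15, Ncam1, Jam2, Cav3 and Dysf. None fell, and Adam12 and Myof did not pass the test. The background to that count is high, since 57.1% of the 10653 genes tested passed (limma, adjusted p under 0.05), 28.2% higher and 29% lower on Day2. The arrays of the 2 groups did not overlap for the same 6 genes, as for 65.9% of all genes. The median log2 change was 3.03 over the 8 genes and -0.02 over all genes. In antimiR cells, which were also grown for 48 h, the same 6 genes were lower than on Day2 and none was higher, where 51.3% of all genes passed, 26.5% higher and 24.9% lower, and the arrays of 61.8% of all genes did not overlap. There the median log2 change was -2.42 over the 8 genes and 0.03 over all genes. These comparisons share the Day2 arrays. Cav3 is in both counts and both medians, though it passed the detection filter through the Day2 arrays alone. It could only have come out different there. In bulk RNA, fewer expressing cells and less RNA per cell cannot be told apart.

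**Figure D1:**
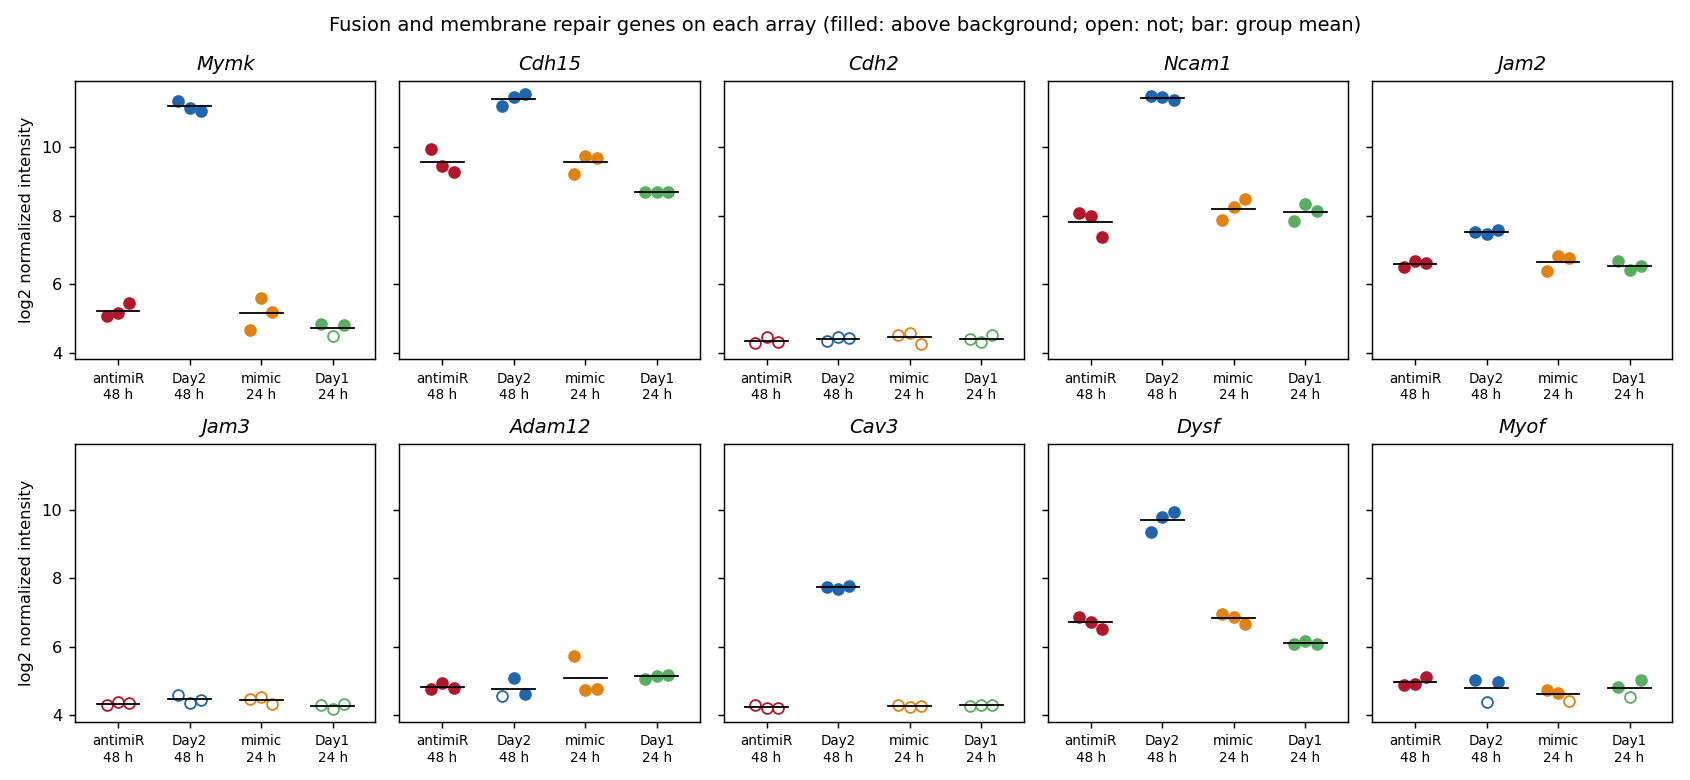
Log2 normalized intensity (vertical axis) of the 10 genes on each of the 12 arrays, by group, for the brightest probe of each gene. Filled points were above background, open points were not, and bars are group means of 3 arrays; Mymk on Day2 lay at 11.06 to 11.35, against 4.49 to 4.83 on Day1, while all Cdh2 and Jam3 points are open.

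Mymk showed the largest change of the 8 genes. It stood at 5.07, 5.16 and 5.44 on the antimiR arrays, against 11.35, 11.15 and 11.06 on the Day2 arrays. On the mimic arrays it stood at 4.66, 5.61 and 5.18, against 4.83, 4.49 and 4.82 on the Day1 arrays. The Day2 arrays lay far above the other 9, which all lay close to the floor, and the mimic and Day1 arrays overlapped. Mymk was 89.0-fold higher on Day2 than on Day1 (log2 change 6.47, SE 0.21, limma adjusted p = 1.55e-11). In antimiR cells it was 62.4-fold lower than on Day2 (log2 change -5.96, SE 0.21, limma adjusted p = 4.13e-11). The size depends on how background is treated: the log2 rise was 5.30 without background correction and 4.49 in the authors' processed values.

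Mymk probe 2, for the same transcript as probe 1, gave nearly the same picture. It lay at 4.75, 4.72 and 4.79 in antimiR cells, 10.80, 10.75 and 10.63 on Day2, 4.50, 4.95 and 5.22 in mimic cells and 4.42, 4.53 and 4.57 on Day1. On Day1 none of its 3 values rose above background, so the change is a bound of at least 65.8-fold on Day2 relative to Day1. That bound holds for this background correction, since the log2 rise of Mymk was 4.49 in the authors' processed values.

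Cdh15 encodes M-cadherin, the calcium-dependent adhesion protein at contacts between muscle cells. It was above background on every array. Its level was 9.94, 9.45 and 9.29 on antimiR arrays, against 11.21, 11.47 and 11.56 on Day2 arrays. It was 9.21, 9.74 and 9.69 on mimic arrays, against 8.69, 8.68 and 8.70 on Day1 arrays. Day2 was highest and Day1 lowest with no overlap with any other group, while antimiR and mimic overlapped between them. Cdh15 was 6.61-fold higher on Day2 than on Day1 (log2 change 2.73, SE 0.17, limma adjusted p = 1.86e-08) and 3.61-fold lower in antimiR cells than on Day2 (-1.85, SE 0.17, limma adjusted p = 9.56e-07). With arrays scaled to a common median, the fall in antimiR cells was -1.29 and did not pass (limma adjusted p = 0.0814).

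Cdh2 encodes N-cadherin, another cadherin of myoblast contacts. The brighter of its 2 probes averaged between 4.35 in antimiR and 4.45 in mimic cells, all under the lowest value above background. A difference in Cdh2 was not detectable with these probes, which does not show that the transcript was absent.

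Ncam1 encodes the neural cell adhesion molecule, which is made as several splice forms and is found on fusing myoblasts. Its brightest probe stood at 8.06, 7.98 and 7.38 on antimiR arrays, against 11.48, 11.45 and 11.39 on Day2 arrays. The mimic arrays gave 7.86, 8.25 and 8.47, against 7.85, 8.34 and 8.15 on Day1 arrays. Day2 lay above all other arrays, whereas the other groups overlapped. The change was 10.0-fold between Day2 and Day1 (log2 change 3.33, SE 0.19, limma adjusted p = 6.63e-09). In antimiR cells Ncam1 was 12.4-fold lower than on Day2 (log2 change -3.63, SE 0.19, limma adjusted p = 3.31e-09).

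The 4 kept Ncam1 probes, numbered by brightness, differed in the size of that change. Probe 1 is annotated to one curated RefSeq transcript of the gene, which has 4, and probes 2 and 3 to another. All kept probes were fitted together for this, a fit in which 53.5% of 19809 probes passed between Day2 and Day1, 47.3% between antimiR and Day2, 6.54% between mimic and Day1 and 19.4% between antimiR and Day1. On Day2 probe 2 was higher than on Day1 by 1.26 (SE 0.21) and probe 3 by 1.73 (SE 0.14, limma adjusted p = 1.70e-07), both smaller log2 changes than that of probe 1. In antimiR cells, relative to Day2, probe 2 fell by 1.52 and probe 3 fell by 1.86. Probe 4, annotated to a cDNA clone, lay near the floor and did not pass between Day2 and Day1 (log2 change -0.07, limma adjusted p = 0.664). Whether these probes report different splice forms was not tested.

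Jam2 and Jam3 encode junctional adhesion molecules that bind each other across cell contacts and are needed for myoblast fusion in zebrafish. The brightest Jam2 probe stood at 6.49, 6.66 and 6.62 on antimiR arrays, against 7.51, 7.46 and 7.58 on Day2 arrays. The mimic arrays gave 6.39, 6.82 and 6.75, against 6.69, 6.40 and 6.53 on Day1 arrays. Day2 was above every other array by this probe, and the other 3 groups overlapped. The log2 change was 0.98 between Day2 and Day1 (SE 0.14, 1.97-fold, limma adjusted p = 3.67e-05) and -0.92 between antimiR and Day2 (SE 0.14, limma adjusted p = 7.63e-05). With arrays scaled to a common median neither passed, at 0.79 (limma adjusted p = 0.311) and -0.50 (limma adjusted p = 0.548).

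The other 4 kept Jam2 probes did not follow the brightest. Probe 2, for the same transcript, lay at 6.63, 6.81 and 6.77 on antimiR arrays, 6.34, 6.59 and 6.48 on Day2 arrays, 6.67, 6.75 and 6.80 on mimic arrays and 6.52, 6.38 and 6.45 on Day1 arrays. Its Day2 and Day1 values overlapped, with a log2 change of 0.02 (limma adjusted p = 0.891 over all kept probes). In antimiR cells, relative to Day2, probes 3 and 4 were higher, by 0.40 and 0.50 on the log2 scale (limma adjusted p = 0.0344 and 0.0223), the opposite of the brightest probe. Between Day2 and Day1 none of these 4 passed, with log2 changes between -0.34 and 0.08. The rise of Jam2 thus rests on 1 probe of 5. Jam3 averaged 4.34 in antimiR, 4.48 in Day2, 4.45 in mimic and 4.27 in Day1 cells, with no array above background.

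**Figure D2:**
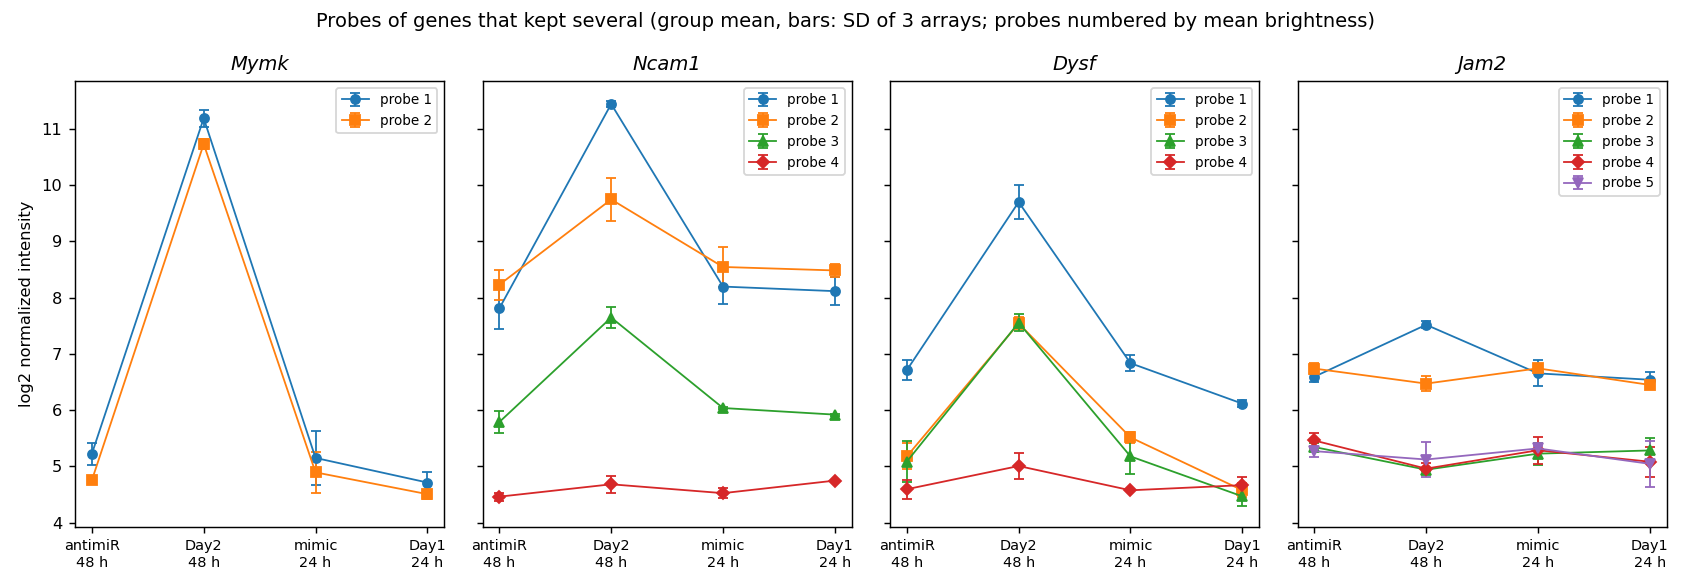
Group means of log2 normalized intensity (vertical axis) for each kept probe of Mymk, Ncam1, Dysf and Jam2, with bars for the SD of 3 arrays and probes numbered by mean brightness. Each line is to be read along its own course, since probes differ in brightness: both Mymk probes, 3 of 4 Ncam1 probes and 3 of 4 Dysf probes peak strongly on Day2, while among the Jam2 probes the brightest alone does.

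Adam12 encodes a transmembrane metalloprotease found in fusing and regenerating muscle. Its level was 4.78, 4.95 and 4.79 in antimiR cells, 4.56, 5.08 and 4.63 on Day2, 5.74, 4.74 and 4.78 in mimic cells and 5.07, 5.14 and 5.19 on Day1. The single high value belonged to mimic replicate 1, and Day2 overlapped with Day1. The log2 change between Day2 and Day1 was -0.38 (95% interval -0.86 to 0.11, limma adjusted p = 0.172), so a modest fall lies within the interval. Without mimic replicate 1, which widens the shared spread of this gene, the same change passed (limma adjusted p = 0.0340).

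Cav3 encodes caveolin-3, the muscle form of the protein that shapes caveolae and that binds dysferlin at the sarcolemma. It lay at 4.31, 4.22 and 4.23 in antimiR cells, against 7.75, 7.70 and 7.76 on Day2. It lay at 4.31, 4.24 and 4.26 in mimic cells, against 4.27, 4.30 and 4.30 on Day1. All 3 Day2 arrays were above background and none of the other 9 was. Folds are therefore bounds: Cav3 was at least 8.27-fold higher on Day2 than on Day1 (limma adjusted p = 1.01e-11) and at least 8.52-fold lower in antimiR cells than on Day2 (limma adjusted p = 9.82e-12). These bounds hold for this background correction, as the fitted log2 rise was 3.45 here, 2.34 without correction and 1.62 in the authors' processed values.

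Dysf encodes dysferlin, the ferlin that brings vesicles to torn sarcolemma. By its brightest probe the level was 6.88, 6.72 and 6.53 on antimiR arrays, against 9.35, 9.80 and 9.94 on Day2 arrays. It was 6.97, 6.86 and 6.68 on mimic arrays, against 6.09, 6.18 and 6.07 on Day1 arrays. Day2 stood highest and Day1 lowest, with antimiR and mimic overlapping in between. Dysf was 11.98-fold higher on Day2 than on Day1 (log2 change 3.58, SE 0.16, limma adjusted p = 4.37e-10). In antimiR cells it was 7.93-fold lower than on Day2 (log2 change -2.99, SE 0.16, limma adjusted p = 3.16e-09).

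Dysf probes 2 and 3 rose too, by 2.96 and 3.09 between Day2 and Day1 in the fit of all kept probes. Probe 4, annotated to a cDNA clone, was 0.34 higher on the log2 scale and did not pass (limma adjusted p = 0.0570). In antimiR cells, relative to Day2, probes 2 and 3 were lower (log2 changes -2.36 and -2.47). Probe 4, near the floor, was lower too (-0.41, limma adjusted p = 0.0274). Relative to Day1, probes 2 and 3 were higher in antimiR cells (0.60 and 0.62, limma adjusted p = 0.0149 and 0.0453), and probe 4 did not pass (-0.07). Myof encodes myoferlin, the ferlin that is best known from mouse myoblasts before and during fusion. Its kept probe, also annotated to a cDNA clone, stood at 4.88, 4.92 and 5.13 in antimiR cells, 5.04, 4.40 and 4.98 on Day2, 4.75, 4.66 and 4.43 in mimic cells and 4.83, 4.54 and 5.04 on Day1. Those values are close to the floor and the Day2 and Day1 arrays overlapped. The log2 change between Day2 and Day1 was 0.00 (95% interval -0.39 to 0.39, limma adjusted p = 0.991). The Myof probe annotated to a RefSeq transcript was above background on 2 of 12 arrays and was not tested.

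**Figure D3:**
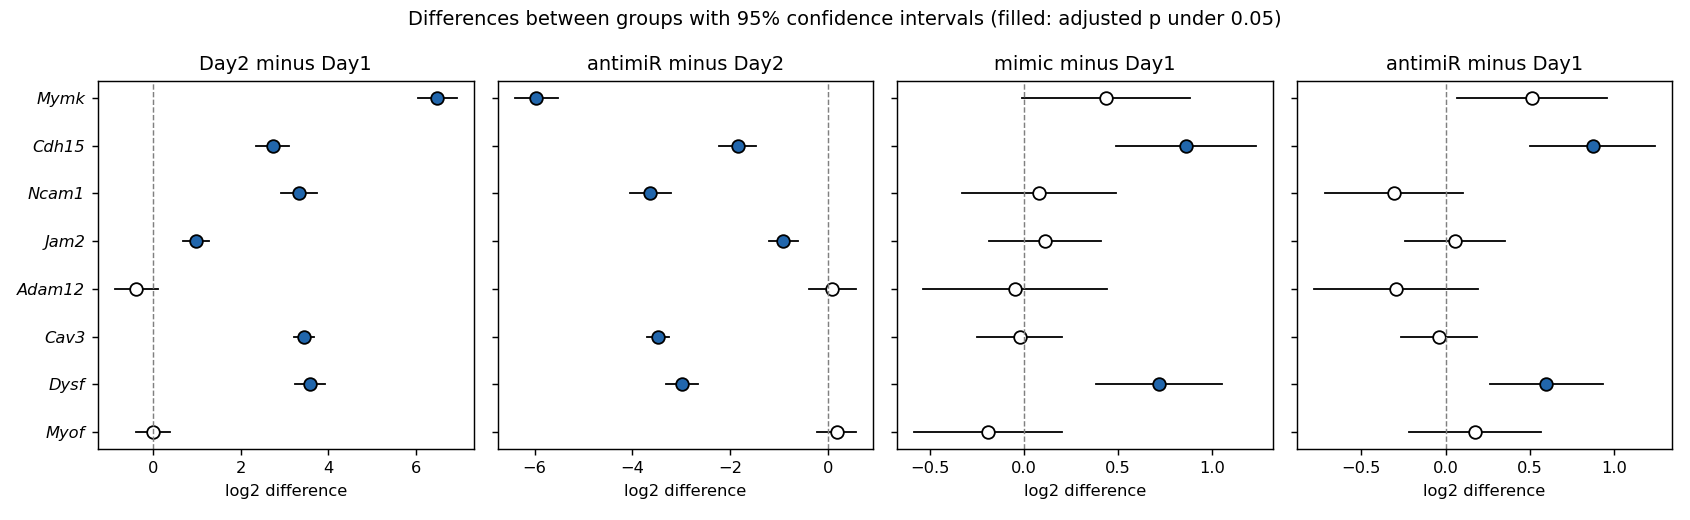
Log2 differences (horizontal axis, with a different range in each panel) of the 8 tested genes in 4 comparisons, with 95% confidence intervals; filled points passed an adjusted p of 0.05. In Day2 minus Day1 the differences run from -0.38 for Adam12 to 6.47 for Mymk, and only Cdh15 and Dysf are filled in the comparisons of mimic and of antimiR with Day1.

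At 24 h, mimic cells differed from Day1 cells in 2 of the 8 genes, the adhesion gene Cdh15 and the repair gene Dysf, both higher. Of all genes tested, 8.47% passed, 4.38% higher and 4.08% lower. Cdh15 was 1.82-fold higher (log2 change 0.86, SE 0.17, limma adjusted p = 0.0216) and Dysf 1.65-fold higher (0.72, SE 0.16, limma adjusted p = 0.0263). By the brightest probes, the mimic and Day1 arrays did not overlap for these 2 genes alone of the 8, as for 24.6% of all genes. Beyond these 2 genes, the arrays of Jam2 probe 2 and of Ncam1 probes 3 and 4 did not overlap either, though none of these probes passed. Dysf probe 2 was higher by 0.94 on the log2 scale (limma adjusted p = 0.00736), and probe 3 by 0.71, with a limma adjusted p just above 0.05. The calls, though not the sizes, depended on single arrays. Without any single Day1 array, or without mimic replicate 2 or 3, neither gene passed, with adjusted p between 0.0516 and 0.127 and log2 changes of 0.76 to 0.87 for Cdh15 and 0.70 to 0.80 for Dysf. Without mimic replicate 1 both passed, Cdh15 at 1.03 (limma adjusted p = 4.53e-05) and Dysf at 0.65 (limma adjusted p = 0.00368). Neither passed in a fit of the 6 arrays alone (limma adjusted p = 0.138 and 0.152), with the replicate number as a block, or with arrays at a common median, where Cdh15 was 0.78 and Dysf 0.66. Both passed with arrays weighted by their fit to the model (limma adjusted p = 9.00e-07 and 0.000104).

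The values of Mymk and Adam12 in mimic cells depended on mimic replicate 1. The Mymk log2 change from Day1 was 0.44 (95% interval -0.01 to 0.88, limma adjusted p = 0.176), with replicate 1 within the Day1 range and replicates 2 and 3 above it. Without replicate 1 the change was 0.68 and passed (limma adjusted p = 0.00390). Adam12 moved more: its change was -0.37 without replicate 1 and -0.05 with it, and passed in neither fit. Ncam1 differed by 0.08 (95% interval -0.33 to 0.49), Jam2 by 0.11 and Myof by -0.19, none of which passed. With array weights, which give mimic replicate 1 little weight, Mymk passed as higher (log2 change 0.78, limma adjusted p = 0.000329). So did Jam2 by its brightest probe (0.27, limma adjusted p = 0.0492), which passed in no other alternative. Cav3 was not above background in either group.

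AntimiR cells at 48 h also differed from the earlier Day1 cells in Cdh15 and Dysf, again both higher, where 22.7% of all genes passed, 12.9% higher and 9.78% lower. Time and treatment cannot be told apart in this comparison. Cdh15 was 1.83-fold higher (log2 change 0.87, SE 0.17, limma adjusted p = 0.00640) and Dysf 1.51-fold higher (0.60, SE 0.16, limma adjusted p = 0.0180). The Dysf call was lost without Day1 replicate 2 or 3 or antimiR replicate 1 (limma adjusted p = 0.0525, 0.0685 and 0.0828), and in the authors' processed values (0.30, limma adjusted p = 0.0744). With arrays at a common median neither gene passed, at 1.15 for Cdh15 (limma adjusted p = 0.430) and 0.83 for Dysf (limma adjusted p = 0.762). By the brightest probes, the arrays did not overlap for 4 of the 8 genes, Cdh15, Dysf, Mymk and Adam12, as for 48.2% of all genes. Beyond these genes, the arrays of Jam2 probe 2 and Ncam1 probe 4 did not overlap either, though neither probe passed. Mymk was above the Day1 range on all 3 antimiR arrays, by 0.51 on the log2 scale (95% interval 0.07 to 0.96), but did not pass (limma adjusted p = 0.0897). It passed without mimic replicate 1 (limma adjusted p = 0.0129) and without mimic replicate 2 (limma adjusted p = 0.0470). Mymk also passed with only the arrays compared (limma adjusted p = 0.0149) and with array weights (limma adjusted p = 0.00240). In no other alternative without a left-out array did it pass. Array weights also called Ncam1 lower in antimiR cells (log2 change -0.42, limma adjusted p = 0.0255).

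Between antimiR and mimic cells none of the 8 genes passed, and 0% of all genes did. By its brightest probe no gene of the 8 reached an unadjusted p under 0.05 in limma, whereas 507 of 10653 genes did. Of their other kept probes Dysf probe 2 did, at -0.34 (unadjusted p = 0.0379, limma adjusted p = 0.957). With arrays weighted by their fit to the model, which gives mimic replicate 1 little weight, 1 of the 8 passed: Ncam1 was lower in antimiR cells (log2 change -0.55, limma adjusted p = 0.0407). In the unweighted fit the Ncam1 difference was -0.39, with an interval of -0.80 to 0.02. By the brightest probes only the Myof arrays did not overlap, with antimiR higher, as for 9.83% of all genes, and among the other kept probes the arrays of Dysf probe 2 and Ncam1 probe 3 did not, with antimiR lower. For Mymk the interval was -0.37 to 0.52, for Cdh15 -0.36 to 0.38 and for Dysf -0.46 to 0.21.

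By their brightest probes, the 6 genes that rose all had their highest level on Day2, and the order below it differed. For Jam2 this rests on the brightest probe alone, since none of its other kept probes was highest on Day2. For Mymk, Ncam1, Jam2 and Cav3, no difference among the other 3 groups passed in the unweighted fit of all 12 arrays. For Cdh15 and Dysf, antimiR and mimic came next without a difference that passed between them, and Day1 was lowest. For Adam12 and Myof no difference between any groups passed.

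The 6 rising genes followed each other closely over the 12 arrays, which share the 4 groups and a Day2 group far from the rest. For Cav3, at background on the other 9 arrays, a correlation says only that a gene was high on Day2 and flat elsewhere, and largely so for Mymk. Pearson's r between pairs of them ran from 0.910 for Cdh15 and Ncam1 to 0.992 for Mymk and Cav3. Adam12 correlated with the other genes at -0.54 to -0.24 and Myof at -0.24 to 0.04. The genes most like Mymk among all those tested were Klhl40 (r = 0.999), Dtna (0.997) and Unc13d (0.997), and those most like Cav3 were Myom3, Myl4 and Srpk3, all at 1.000 after rounding. For Ncam1 they were Asb8 (0.993), Rabgef1 (0.992) and Myh8 (0.991), and for Dysf Ogfr (0.995), Mylk2 (0.994) and Tbc1d1 (0.993). For Cdh15 they were Oasl2 (0.995), Dcn (0.994) and Mvp (0.994), and for Jam2 Emc2 (0.985), Suclg1 (0.984) and Gbp2b (0.979). Adam12 was most like Pbp2 (0.927), Fcna (0.896) and Siglecg (0.884). Myof had no close match, with Trim62 and Krtap19-4 at 0.794 and Ikzf3 at 0.787.

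Promoters were examined for 4 of the 10 genes, Cdh15, Cav3, Dysf and Myof. They were 5 promoters of 300 bases (RefSeq, GRCm38.p6, 250 bases before to 50 after the start of the gene). Cdh2 was left out of this search, and no promoter sequence was at hand for Mymk, Ncam1, Jam2, Jam3 and Adam12. The promoters are shown for the members that rose, Cdh15, Cav3 and Dysf, because myogenic factors of the MyoD family bind the E-box CANNTG. Its matches are in capitals. CANNTG reads the same on both strands and was found in 72.31% of the 32851 promoters of this length, with 3 or more matches in 17.61%.
Cdh15, chr8:122848124-122848423, plus strand: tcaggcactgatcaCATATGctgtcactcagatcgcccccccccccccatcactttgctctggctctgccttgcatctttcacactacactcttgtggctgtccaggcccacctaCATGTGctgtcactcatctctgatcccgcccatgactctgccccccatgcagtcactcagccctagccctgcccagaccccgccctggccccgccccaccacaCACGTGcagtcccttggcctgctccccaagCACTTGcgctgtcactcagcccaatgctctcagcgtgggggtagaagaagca
Cav3, chr6:112459255-112459554, plus strand: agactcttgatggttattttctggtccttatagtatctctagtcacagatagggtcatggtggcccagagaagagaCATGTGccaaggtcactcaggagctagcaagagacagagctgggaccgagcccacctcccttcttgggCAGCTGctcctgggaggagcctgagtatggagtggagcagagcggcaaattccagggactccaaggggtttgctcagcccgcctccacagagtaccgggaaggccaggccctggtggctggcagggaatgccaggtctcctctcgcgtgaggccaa
Dysf, first start, chr6:84008348-84008647, plus strand: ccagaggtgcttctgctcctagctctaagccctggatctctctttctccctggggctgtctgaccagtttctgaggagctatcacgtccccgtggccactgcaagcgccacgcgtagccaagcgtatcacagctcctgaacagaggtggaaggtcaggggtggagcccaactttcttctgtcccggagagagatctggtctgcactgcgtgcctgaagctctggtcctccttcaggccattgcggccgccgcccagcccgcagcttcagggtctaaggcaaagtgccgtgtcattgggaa
Dysf, second start, chr6:84019136-84019435, plus strand: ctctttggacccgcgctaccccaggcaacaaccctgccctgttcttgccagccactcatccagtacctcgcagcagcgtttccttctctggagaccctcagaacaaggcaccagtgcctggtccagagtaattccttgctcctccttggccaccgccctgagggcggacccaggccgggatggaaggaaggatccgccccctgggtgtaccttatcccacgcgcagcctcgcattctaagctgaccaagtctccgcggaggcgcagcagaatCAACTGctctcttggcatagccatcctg

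The Cdh15 promoter held 4 CANNTG matches, beginning 236, 135, 32 and 2 bases before the start. The Cav3 promoter held 2, beginning 174 and 106 bases before the start, and the nearer one is CAGCTG, the form found in 16.3% of promoters. CACCTG, searched on both strands and found in 20.21% of promoters, was in none of the 5 that were examined. GGAATG, the motif of TEAD factors, was searched on both strands and occurred once in Cav3, beginning 18 bases after the start, against 14.66% of promoters overall. The first Dysf promoter had no CANNTG and the second had 1, while the Myof promoter (chr19:38043528-38043827, minus strand) had none. These are matches of letters, and no binding was measured.

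Other genes of the same processes moved in both directions between Day2 and Day1, as did all genes, of which 28.2% were higher and 29% lower. Of 25 tested genes on a list of other fusion genes, 10 rose and 6 fell, with a median log2 change of -0.11. The chemokine gene Cxcl12 rose by 1.99 (SE 0.24), Elmo1, a partner of the guanine nucleotide exchange factor Dock1, by 1.55, the exchange factor gene Trio by 1.40 and Cdon, a cadherin-binding co-receptor, by 1.23 on the log2 scale. Of 28 tested genes on a list of other membrane repair genes, 10 rose and 9 fell (median 0.11). Trim72, which encodes the repair protein MG53, stayed at background throughout Day1, and its rise on Day2 was at least 84.9-fold. That bound holds for this background correction, as the log2 rise was 5.39 without correction and 4.51 in the authors' processed values. Like Cav3, Trim72 was at background on every Day1 and antimiR array. Compared with either group, it could only have come out higher on Day2, and it is in the counts and medians of its list. Cavin4, a muscle caveolar coat protein gene, rose by 3.75 (SE 0.10), Bin1, which encodes a membrane-bending protein of T-tubules, by 2.42, and Ehd4 by 1.74.

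Among 15 tested relatives at the junction (cadherins, catenins, nectins and ADAM proteases), 8 rose and 1 fell between Day2 and Day1 (median 0.32). Cdh13, the cadherin anchored in the membrane by a lipid, rose by 2.74 (SE 0.15), about as much as its relative Cdh15. The nectin gene Nectin2 rose by 1.66 and alpha-catenin, Ctnna1, by 1.26, while Nectin3 fell by 1.31. In antimiR cells, relative to Day2, where 26.5% of all genes were higher and 24.9% lower, 1 of the 15 was higher and 6 were lower, 13 of the 28 repair genes were higher and 8 lower, and 11 of the 25 fusion genes were higher and 8 lower. The medians were -0.19, 0.26 and 0.28 for the 3 lists. Trim72 was at least 87.5-fold lower in antimiR cells with this background correction, while its log2 change was -4.48 in the authors' processed values. Cavin4 fell by 3.73, Bin1 fell by 2.26, Ehd4 fell by 2.16 and Cdh13 fell by 1.63. Nectin2 fell by 1.24 and Ctnna1 fell by 0.83, while Nectin3 was 1.29 higher on the log2 scale. Of the fusion genes Fst, which encodes the activin antagonist follistatin, fell by 1.91, Elmo1 fell by 1.63 and Trio fell by 1.60, while the chemokine receptor gene Cxcr4 was 2.10 higher (SE 0.39).

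**Figure D4:**
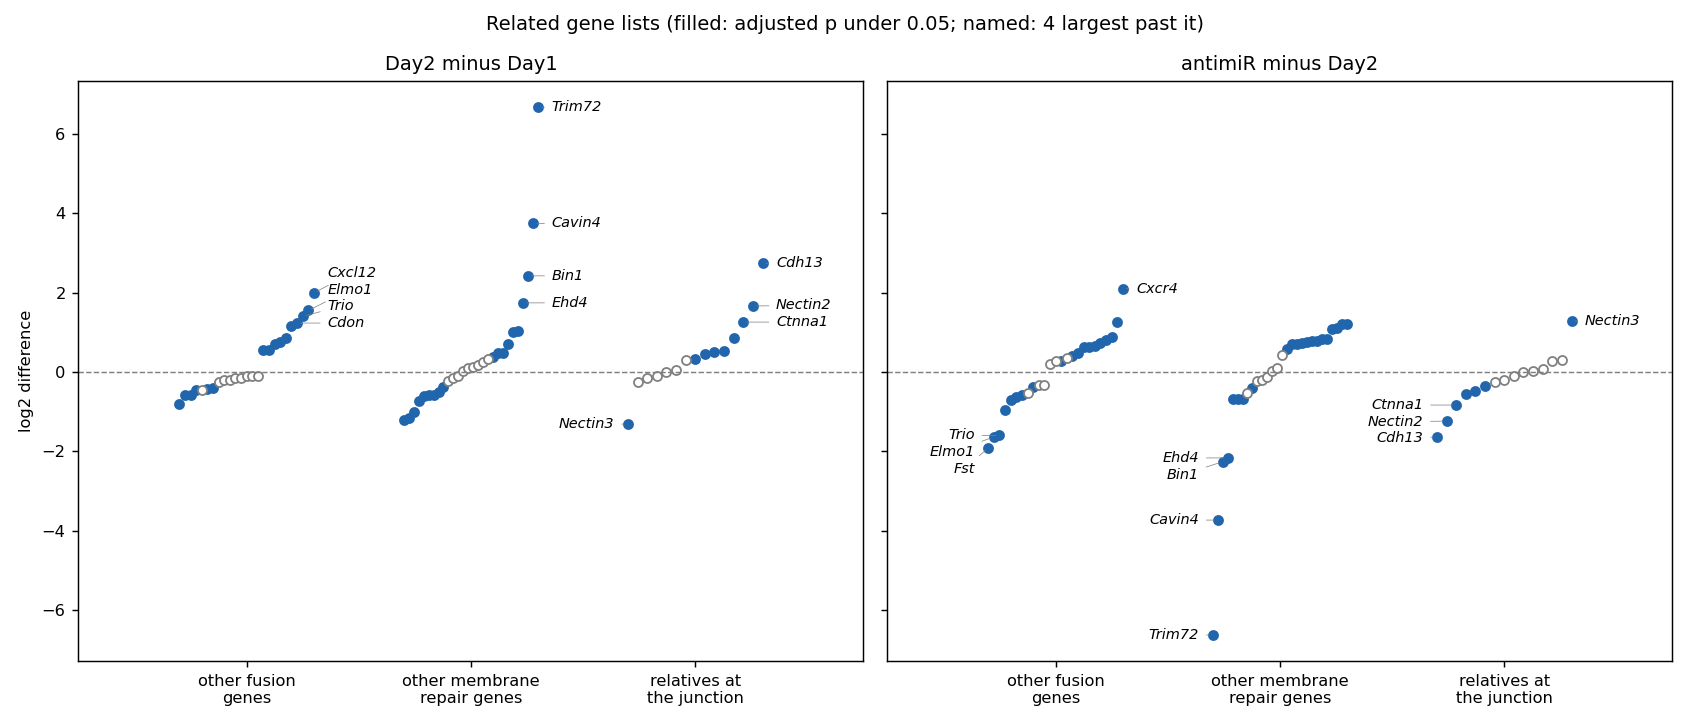
Log2 difference (vertical axis) of each tested gene on 3 lists of related genes, sorted within a list, for Day2 minus Day1 and antimiR minus Day2. Filled points passed an adjusted p of 0.05 and the 4 largest of these are named; Trim72 stands at 6.67 in the first panel and at -6.62 in the second.

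In mimic cells, relative to Day1, where 4.38% of all genes were higher and 4.08% lower, 2 of the 25 other fusion genes rose, Cxcl12 by 0.92 (limma adjusted p = 0.0406) and the tetraspanin gene Cd9 by 0.82 (limma adjusted p = 0.0231). Of the 28 other repair genes 6 rose, among them the annexin genes Anxa6 (0.92) and Anxa5 (0.65) and the caveolar genes Cav1 (0.69) and Cavin1 (0.66). Of the 15 junction relatives Cdh13 rose by 1.17 (limma adjusted p = 0.00184) and Ctnna1 by 0.40. No list gene passed as lower there. In antimiR cells, relative to Day1, where 12.9% of all genes were higher and 9.78% lower, 6 fusion genes rose and 3 fell, 7 repair genes rose and 1 fell, and 6 junction relatives rose and 0 fell. Cxcr4 was higher by 1.91, Cd9 by 1.13, Cxcl12 by 1.05, Anxa6 by 1.12, Cavin1 by 0.83, the calpain subunit gene Capns1 by 0.63, Cav1 by 0.61, Cdh13 by 1.10, Tjp1 by 0.63, Ctnnd1 by 0.61 and Nectin2 by 0.43 on the log2 scale, while Fst fell by 1.37. Between antimiR and mimic cells 0 genes of the 3 lists passed in limma.

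The counts of these lists depended on how arrays were scaled, a check added after seeing the data. With arrays set to a common median, 3 fusion genes rose and 2 fell between Day2 and Day1, 5 repair genes rose and 2 fell, and 2 junction relatives rose and 1 fell. The median of the repair list turned to -0.11 there. In antimiR cells, relative to Day2, that scaling called 4 fusion genes higher and 3 lower, 8 repair genes higher and 4 lower, and 1 junction relative higher and 0 lower, with a median of 0.04 for the last list. In mimic cells, relative to Day1, 0 list genes passed in limma under it, and in antimiR cells, relative to Day1, 1 fusion gene rose and 0 fell, while 0 repair genes and 0 junction relatives passed. The changes named from the lists, 44 over the comparisons, kept their sign under this scaling, without background correction and in the authors' values, and 18 of them still passed under the common median, those of Trim72, Cavin4, Bin1 and Ehd4 among them.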

How the data were processed

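RNA from C2C12 cells was measured on 12 Illumina arrays in 4 groups, taken from the labels. The raw probe intensity on a linear scale is the authors' deposited scanner output. The detection column, headed as a p-value, holds a score in the deposited table that rises with brightness, so it was subtracted from 1 to give a detection p. A table of processed log2 values was deposited too. Lumi is named per the submitters' processing notes, and its settings are not given in the sources used here. Between the scanner table and the processed one, Day2 replicates 2 and 3 appear exchanged by rank order. Day2 group values do not depend on this.

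Intensities were corrected with the normexp model (limma 3.58.1, R 4.3.3; offset 16), quantile-normalized and taken to log2. Probes with a detection p under 0.05 on at least 3 of 12 arrays were kept (19809 of 45281). The platform annotation named 1 gene for 34885 probes, several genes for 18 and none for 10378, and 34807 of the named ones were matched to the RefSeq gene table. The brightest kept probe stood for each of 10653 genes. Limma fitted 4 group means with moderated variances, two-sided tests and Benjamini-Hochberg adjustment over all 10653 genes, with a threshold of 0.05. The fit was also tested on simulated data. Changes are log2 differences with standard errors, and 3 arrays a group limit the precision. Any given pair of arrays had at most a fraction of 0.00775 of raw values in common. For a probe at background on every array of a group, the fold is a bound, for which dim values were replaced by that array's lowest detected signal where this was higher.

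The genes and lists were chosen with earlier results of these data known. Named are all members and their kept probes, the 4 largest changes past the threshold in each list and comparison, the 3 genes most correlated with each member, and the cell type markers. Alternatives were another scaling, no background correction, the authors' values, other detection filters, the second probe of a gene, only the arrays compared, array weights, the replicate number as a block, each array left out and, added after seeing the data, all kept probes in one fit and the list counts under other scalings.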

Additional observations from a re-analysis of the deposited data

How the results depend on the processing

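The 6 genes that rose on Day2 and were lower in antimiR cells kept those directions in the alternatives that gave them a value, except Jam2, whose second probe gave 0.27 for antimiR minus Day2 (limma adjusted p = 0.0776) and 0.02 for Day2 minus Day1 (limma adjusted p = 0.882). Cav3 and Myof were removed by the stricter filter, a detection p under 0.01 on at least 6 arrays, and have no value there. Median scaling in place of quantiles moved the median of all genes by 0.28 in antimiR minus Day2, 0.17 in antimiR minus Day1, 0.27 in antimiR minus mimic and -0.099 in Day2 minus Day1. It called 1881 genes in Day2 minus Day1, 25 in mimic minus Day1, 1790 in antimiR minus Day2, 197 in antimiR minus Day1 and 1 in antimiR minus mimic, in place of 6088, 902, 5466, 2413 and 0. Of the members it called 5, 0, 4, 0 and 0. The share of higher calls was 36.0% in place of 51.77% in mimic minus Day1, 64.8% in place of 51.56% in antimiR minus Day2 and 79.19% in place of 56.82% in antimiR minus Day1. With the authors' processed values 1 member passed in mimic minus Day1 and 1 in antimiR minus Day1, where Dysf had adjusted p = 0.0596 and 0.0744. Without a detection filter 183 genes passed in mimic minus Day1. With only the arrays compared, 0 members and 3 genes (66.67% higher) passed in mimic minus Day1 and 3793 genes in antimiR minus Day1. Array weights, which gave mimic replicate 1 a weight of 0.131, called 4 members and 4909 genes in mimic minus Day1, 4 members and 4384 genes in antimiR minus Day1, and 1 member and 527 genes in antimiR minus mimic. With 1 array left out, members called ranged over 0 to 3 in mimic minus Day1 and 1 to 3 in antimiR minus Day1. All genes called ranged over 28 to 4017, 647 to 3752 and, in antimiR minus mimic, 0 to 1. The causes were not tested.

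The replicate numbers gave no sign of pairing the samples. Of 18 same-number pairs of arrays, 3 had deviations that correlated above 0.1 (range -0.55 to 0.17), against 12 of 36 other pairs. A pairing is not excluded, since deviations within a group of 3 arrays are not independent. Day2 replicates 2 and 3 may also be exchanged, which bears on these pairs and on the fit that follows. With the number as a block 0 members passed in mimic minus Day1 and 53 genes did, and no other count of members changed.

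Some small values that had not passed changed sign. Median scaling gave -0.020 for Myof in Day2 minus Day1, 0.012 for Adam12 in mimic minus Day1, and 0.24 for Jam2 and 0.17 for Dysf in antimiR minus mimic. Myof in Day2 minus Day1 was -0.0082 without background correction, -0.0046 in the authors' values and -0.13 with array weights. Array weights also gave -0.027 for Adam12 in antimiR minus Day2, and -0.19 for Mymk, -0.28 for Cdh15 and 0.073 for Adam12 in antimiR minus mimic, where the second Mymk probe gave -0.14. With 1 array left out, values ranged from -0.13 to 0.21 for Myof in Day2 minus Day1, in mimic minus Day1 from -0.057 to 0.25 for Ncam1 and -0.37 to 0.12 for Adam12, in antimiR minus Day2 from -0.015 to 0.25 for Adam12 and -0.032 to 0.28 for Myof, and in antimiR minus Day1 from -0.014 to 0.13 for Jam2. In antimiR minus mimic they ranged from -0.17 to 0.30 for Mymk, -0.18 to 0.15 for Cdh15, -0.19 to 0.022 for Jam2, -0.42 to 0.078 for Adam12 and -0.045 to 0.0033 for Cav3. Signal over background limits what can be said of Cdh2, Jam3, Myof and Adam12.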
